A study of Mus musculus with 6 samples.

Results

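The expression of the interferon-induced transmembrane genes Ifitm1, Ifitm2, Ifitm3 and Ifitm6 was examined in marrow monocytes and macrophages from mice with and without a human leukaemia. The 4 genes were read by 8 of the 45281 probes of a mouse bead array, and they are 4 of the 19057 genes that the array names. All probes that the platform annotation gives to these symbols were taken, 5 for Ifitm1 and 1 for each of the other 3 genes. The family was selected on its values in this same comparison of 3 control with 3 MEC1 mice, so the values, changes and calls of its probes are a description and carry no test. All animals were BALB/c mice of the genotype Rag2-/-γc-/-, which lack lymphocytes and accept human grafts, and all were 11 weeks old. Control mice A, B and C were untreated. Mice D, E and F had received MEC1 cells, an established human B cell line from chronic lymphocytic leukaemia, into a vein, and cells of both groups were taken at day 21, an early stage. Monocytes and macrophages were separated from the marrow with magnetic beads, and RNA of each mouse was hybridised to 1 array.

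IFITM proteins are small membrane proteins of the CD225 family that hinder the fusion of enveloped viruses with cell membranes. Interferons raise their transcription through the STAT factors and IRF9, and many cells, stem cells and myeloid cells among them, also express them without interferon. IFITM3 acts mainly in endosomes and lysosomes, IFITM1 more at the cell surface, and in mice Ifitm6 is known as a gene of myeloid cells.

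The members lie side by side on mouse chromosome 7, in the order Ifitm2, Ifitm1, Ifitm3 and Ifitm6, and RefSeq windows around their transcription starts were found for 4 of 4. They are shown because interferon can act on genes through motifs near the start. Each runs 5′ to 3′ on the strand of its gene, from 250 bases before the start to 50 after it, in build GRCm38.p6. The Ifitm1 window is chr7:140967826-140968125 on the plus strand, and those on the minus strand are chr7:140955912-140956211 for Ifitm2, chr7:141010695-141010994 for Ifitm3 and chr7:141016843-141017142 for Ifitm6. Both strands were searched for the core of the interferon-stimulated response element, GAAA followed by any 2 bases and GAAA again, and for TTCNNNGAA, the gamma-activated site bound by STAT dimers. Capitals mark the matches.
Ifitm1: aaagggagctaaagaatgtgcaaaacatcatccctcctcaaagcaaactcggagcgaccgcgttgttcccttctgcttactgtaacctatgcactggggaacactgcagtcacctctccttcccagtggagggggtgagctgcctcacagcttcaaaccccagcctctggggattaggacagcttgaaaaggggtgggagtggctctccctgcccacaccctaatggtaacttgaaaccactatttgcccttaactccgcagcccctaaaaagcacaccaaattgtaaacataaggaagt
Ifitm2: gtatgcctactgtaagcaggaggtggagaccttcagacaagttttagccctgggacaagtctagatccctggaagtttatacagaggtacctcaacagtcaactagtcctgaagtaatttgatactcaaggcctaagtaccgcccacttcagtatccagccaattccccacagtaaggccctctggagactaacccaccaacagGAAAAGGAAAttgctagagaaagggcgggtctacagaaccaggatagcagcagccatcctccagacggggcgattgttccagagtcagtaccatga
Ifitm3: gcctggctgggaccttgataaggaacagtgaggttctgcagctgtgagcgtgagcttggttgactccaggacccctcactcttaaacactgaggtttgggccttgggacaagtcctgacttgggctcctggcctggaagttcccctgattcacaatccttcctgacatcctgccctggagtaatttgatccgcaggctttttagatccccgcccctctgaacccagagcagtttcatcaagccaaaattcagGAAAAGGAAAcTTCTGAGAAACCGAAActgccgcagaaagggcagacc
Ifitm6: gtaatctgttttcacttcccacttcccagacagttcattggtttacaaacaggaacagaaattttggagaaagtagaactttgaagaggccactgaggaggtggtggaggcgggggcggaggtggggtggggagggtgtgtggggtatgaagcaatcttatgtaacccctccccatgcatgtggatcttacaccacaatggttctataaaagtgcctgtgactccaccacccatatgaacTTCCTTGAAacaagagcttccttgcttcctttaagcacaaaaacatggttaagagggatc

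The response-element core occurred at bases 205 to 214 of the Ifitm2 window, 46 bases before the start. In the Ifitm3 window it occurred at bases 253 to 262 and again at 270 to 279, both just past the start. The gamma-activated site occurred at bases 264 to 272 of the Ifitm3 window, where it overlaps the second response-element match, and at bases 241 to 249 of the Ifitm6 window. The Ifitm1 window held neither run of letters, and no other start of Ifitm1 was searched. Of 32851 RefSeq windows of the same 300 bases, 3.443% held the response-element core and 8.298% held TTCNNNGAA. A match is a run of letters and not a measured binding site.

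Each array detected 15545 to 16976 probes, and its median raw intensity was 114 to 131 for control mice and 70.7 to 87.6 for MEC1 mice. The 6 arrays shared 1 chip, whose first 3 positions held the control mice, so chip position and group cannot be told apart. Normalized log2 intensities correlated across probes at Pearson's r of 0.991 to 0.994 within the control group, 0.965 to 0.983 within the MEC1 group and 0.969 to 0.985 for pairs from different groups. Of 11 marker genes of monocytes and macrophages, 8 were tested, with control mice at 15.24 ± 0.04 (SD, n = 3; log2 intensity) for Lyz2, the macrophage lysozyme, and Mertk was too dim to be tested. Ly6c2 and Cd68 were not matched to a probe. The preparations also carried signal of other marrow cells: 12 of 13 neutrophil markers and 9 of 9 erythroid markers on the array were tested. Of all 19057 named genes, 9089 were tested. Control means of the tested neutrophil markers ran from 5.89 for Cxcr2 to 14.88 for S100a8 (log2 intensity). Those of the erythroid markers ran from 8.25 for Gata1 to 15.47 for Hba-a1. In such bulk RNA, fewer cells of a type and less RNA per cell cannot be told apart. Each probe has its own brightness, so ranks on the array and sums over genes describe signal and do not compare the RNA of different genes.

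The probes that differed most between the groups were both probes of Ifitm1. Probe ILMN_1214071 read normalized log2 intensities (mice A to C, then D to F, in this order throughout) of 10.40, 10.80 and 10.04 in control mice and of 12.24, 12.38 and 12.19 in MEC1 mice. Every MEC1 mouse was above every control mouse, and the control mice were spread more widely (SD 0.38, n = 3) than the MEC1 mice (SD 0.10, n = 3). The log2 change was 1.86 ± 0.20 (SE), or 3.62-fold. The rise was visible before normalization too, since the raw intensities were 1915, 2493 and 1419 in control mice and 4377, 2652 and 3594 in MEC1 mice. Raw values of the groups did not overlap, although the MEC1 arrays were dimmer as a whole.

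A second Ifitm1 probe, ILMN_2814484, had the same pattern close to the background of the array. It read 5.15, 6.11 and 5.15 in control mice and 7.63, 7.36 and 7.36 in MEC1 mice, again without overlap. The change was 1.98 ± 0.32 (SE), and it was 1.03 without background correction. Detection, a p-value under 0.05 against the negative controls of the same array, was reached in 1 of 3 control mice, mouse B, and in 3 of 3 MEC1 mice, so the probe passed the filter on dim probes through the MEC1 mice. Raw intensities were 132, 171 and 116 against 215, 130 and 184, so that in raw values mouse E lay below mice A and B and the groups overlapped.

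**Figure D1:**
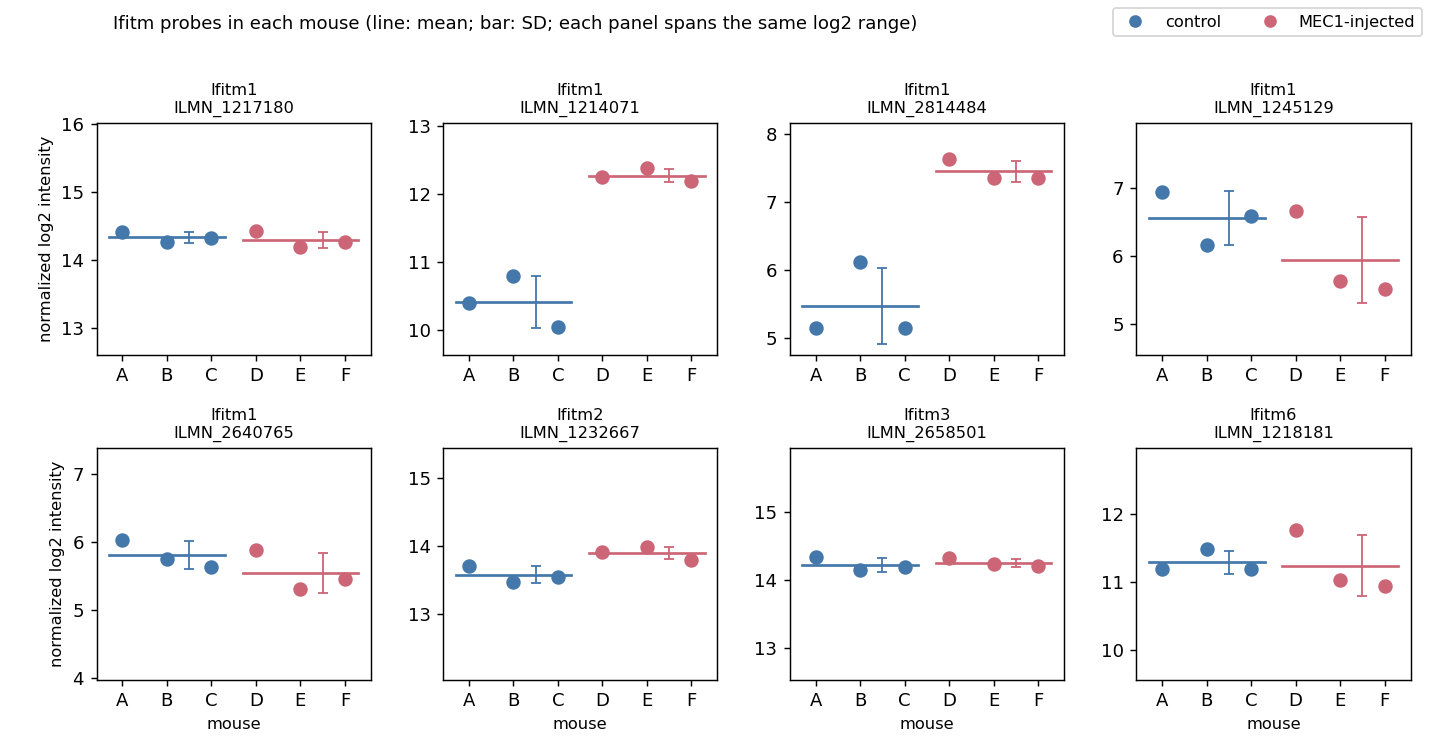
Normalized log2 intensity (vertical axis) of the 8 Ifitm probes in each of the 6 mice (horizontal axis), with control mice in blue and MEC1 mice in red; lines are group means, bars are SD (n = 3), and all panels span the same log2 range. Ifitm1 probes ILMN_1214071 and ILMN_2814484 and the Ifitm2 probe show groups that do not overlap, and the other 5 panels show overlap.

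The remaining 3 Ifitm1 probes did not share this pattern. The brightest of them, ILMN_1217180, read 14.41, 14.26 and 14.32 in control mice and 14.42, 14.19 and 14.27 in MEC1 mice, a change of -0.04 ± 0.09 (SE). Its values in the groups lay on top of each other. This probe ranked between 108 and 167 among the 45281 probes of each array, with raw intensities of 11972 to 26165, while the brightest probe of an array reached 31868 to 53109.

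The last pair of Ifitm1 probes was dim. ILMN_1245129 read 6.95, 6.16 and 6.59 in control mice and 6.67, 5.64 and 5.52 in MEC1 mice. Mice E and F were the lowest and mouse D lay among the control mice, with a change of -0.62 ± 0.37 (SE). It was detected in 3 of 3 control mice and in 1 of 3 MEC1 mice, mouse D. ILMN_2640765 read 6.03, 5.75 and 5.64 in control mice and 5.87, 5.31 and 5.45 in MEC1 mice, a change of -0.26 ± 0.25 (SE), and was detected in mice A, B and D. Here too mice E and F were lowest and mouse D overlapped the control mice.

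The changes of the 5 Ifitm1 probes thus spanned 2.60 on the log2 scale, from -0.62 to 1.98, with a dim probe at either end. Without background correction they spanned 2.08, from -0.29 to 1.79, the upper end then being ILMN_1214071. Of 3445 genes with several tested probes, 54 had exactly 5, and the range over the probes of such a gene had a median of 0.839 and a highest value of 5.16. Among these 54 genes, 2 had a range at least as wide as that of Ifitm1, Ifitm1 itself included, and the other one was Actb, the gene of beta-actin. This place is a description and no test, since the family was chosen with the disagreement of its probes known. It holds for the range of 2.60, whose upper end is the dim probe ILMN_2814484. The platform annotation assigns all 5 Ifitm1 probes to the same transcript, while RefSeq lists 4 curated transcripts of Ifitm1 and 1 each of Ifitm2, Ifitm3 and Ifitm6. Probe sequences were not used here, so which part of Ifitm1 each probe reads was not tested, nor whether a probe also reads a near-identical family member.

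Ifitm2, which encodes a family member of endosomal membranes, had 1 probe, ILMN_1232667. It read 13.71, 13.47 and 13.54 in control mice and 13.91, 13.98 and 13.80 in MEC1 mice. The groups did not overlap, although the gap between mice A and F was smaller than the SD of either group (0.12 and 0.09, n = 3 each), and the change was 0.32 ± 0.10 (SE), or 1.25-fold. In raw intensity the MEC1 mice were lower on average and the groups overlapped, at 16737, 14532 and 14013 in control mice and 14483, 9774 and 11919 in MEC1 mice.

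Ifitm3, the family member with the best known role against viruses that enter through endosomes, gave close to the same normalized level in all mice. Its probe ILMN_2658501 read 14.34, 14.14 and 14.19 in control mice and 14.32, 14.23 and 14.21 in MEC1 mice. The change was 0.03 ± 0.09 (SE), and the groups overlapped. Raw intensities were 25036, 22156 and 21139 against 19536, 12613 and 16574, and its rank was between 126 and 179 of all probes on an array.

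Ifitm6, the myeloid member, varied more between MEC1 mice than between the groups. Probe ILMN_1218181 read 11.18, 11.48 and 11.19 in control mice and 11.76, 11.02 and 10.93 in MEC1 mice. Mouse D was the highest of all 6 and mice E and F were the lowest, with SD of 0.45 in MEC1 mice against 0.17 in control mice (n = 3 each). The change was -0.05 ± 0.22 (SE). The raw intensities again had mouse D highest within the MEC1 group, at 3108 against 994 in mouse E and 1501 in mouse F, beside 3201, 3951 and 2997 in control mice.

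All 8 probes passed the filter on dim probes and were fitted with all 16460 tested probes of the array by limma. In that fit 2 of the 8 were called higher in MEC1 mice at an adjusted p under 0.05, both of Ifitm1, and 0 were called lower. Over all tested probes 1.54% were called in either direction and 0.869% were called higher, and since the family was chosen in this comparison nothing is read from the member count. Groups did not overlap for 3 of 8 members, against 27.7% of all tested probes. The median change of the members was -0.0046 on the log2 scale, beside -0.022 over all tested probes. Of all tested probes 0.419% had a change at least as large as that of ILMN_1214071, which is likewise a description and no test. From the fifth to the 95th percentile the tested probes ran from -0.87 to 0.76, a span that held 6 of the 8 members.

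**Figure D2:**
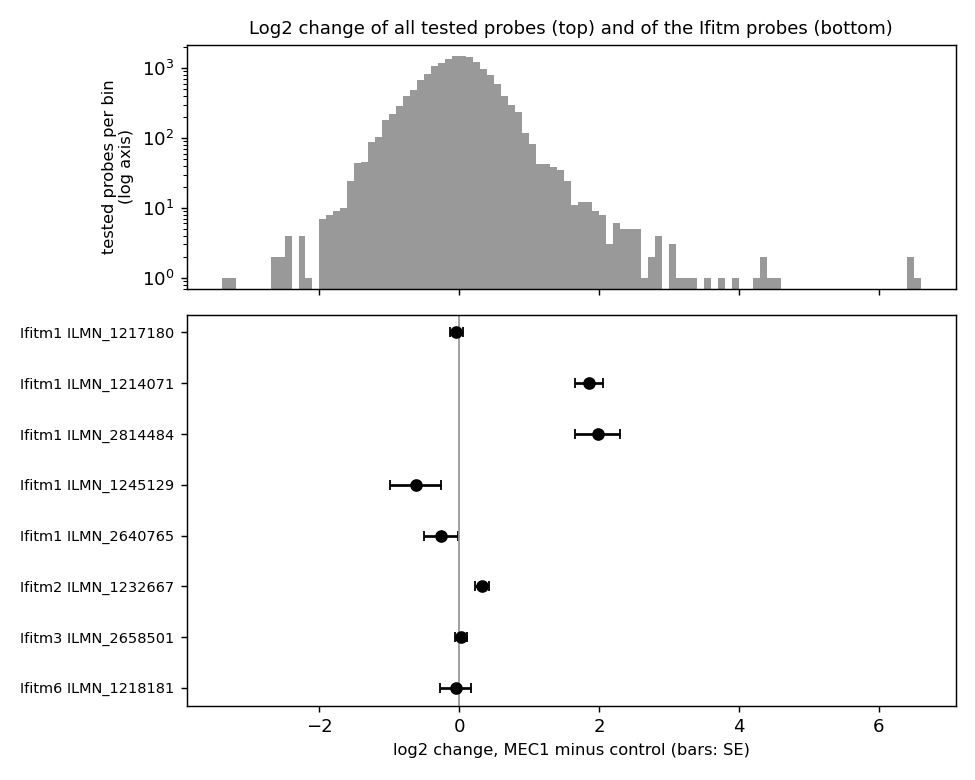
Top, number of tested probes (log axis) in bins of 0.1 of the log2 change, MEC1 minus control; bottom, log2 change of each Ifitm probe on the same horizontal axis, with bars for the SE. Of the 8 probes, ILMN_1214071 at 1.86 and ILMN_2814484 at 1.98 lie in the right tail and 6 lie within the bulk.

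The calls rested on few mice, 3 in each group. Over all tested probes 253 were called with every mouse. Without control mouse A, B or C 5, 9 and 9 were called. Without MEC1 mouse D, E or F 1218, 67 and 127 were called. Without mouse A the change was 1.85 for ILMN_1214071 and 1.82 for ILMN_2814484. Probe ILMN_1214071 kept its direction in 14 of 14 alternative settings, with changes from 1.40 to 2.17, and was called in 12. Not every setting could move the direction. Leaving out 1 mouse could not turn it, since every MEC1 mouse lay above every control mouse in normalized values. Another filter on dim probes or plain moderation left the change of ILMN_1214071 at 1.86. The authors' processed values nearly repeated the setting without background correction, at 1.79 in both. The same holds for ILMN_2814484, which kept its direction in 14 of 14, from 1.03 to 2.30, and was called in 8. Without control mouse A, or with chip position as a covariate, 0 of the 8 probes were called. Chip position was entered as the order of the arrays, A to F, which runs along with group. That fit called 0 of all tested probes and cannot tell position from group. In it ILMN_1214071 changed by 2.17 and ILMN_2814484 by 2.18.

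Raw ratios are set beside the normalized ones because the MEC1 arrays were dimmer. In raw intensity the geometric mean of the MEC1 mice over that of the control mice was below 1 for 6 of the 8 probes, and the median raw ratio of all tested probes was 0.548. The raw ratio was 1.83 for ILMN_1214071 and 1.25 for ILMN_2814484. It was 0.673 for ILMN_1217180, 0.704 for Ifitm3 and 0.791 for Ifitm2, each above the median of all probes. It was 0.497 for Ifitm6 and 0.483 for ILMN_1245129, both below it.

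**Figure D3:**
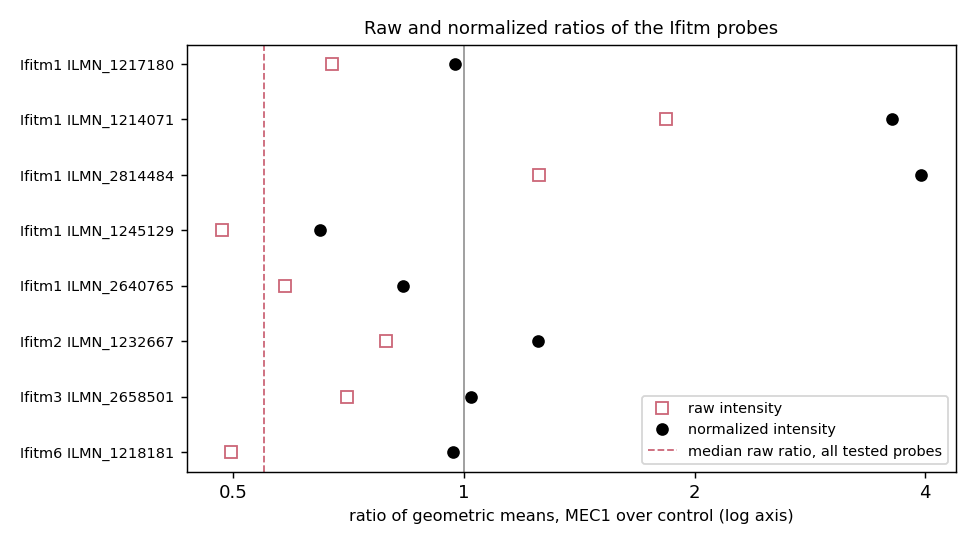
Ratio of geometric means, MEC1 over control (log axis), of each Ifitm probe in raw intensity (open squares) and after normalization (filled circles); the dashed line is the median raw ratio of all tested probes, 0.548. Raw ratios run from 0.483 to 1.83 and only the 2 called Ifitm1 probes lie above 1.

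The Ifitm1 probes fell into separate patterns over the mice. Over the 6 arrays ILMN_1214071 and ILMN_2814484 correlated at Pearson's r of 0.98. The other 3 Ifitm1 probes correlated with each other at 0.87 to 0.90 and with that pair at -0.63 to -0.28. The Ifitm2 probe went with the called pair, at 0.84 and 0.75, and the Ifitm3 probe with ILMN_1217180, at 0.74. These are descriptions over 6 arrays of both groups. The groups differ in array brightness and chip position, and any difference between them enters each r.

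**Figure D4:**
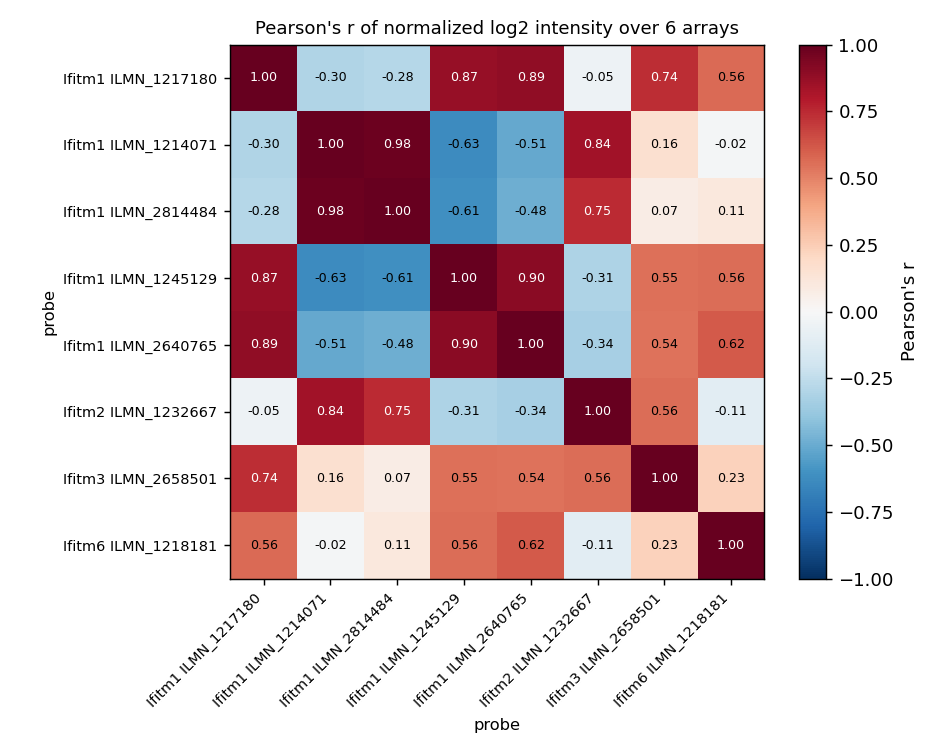
Pearson's r of normalized log2 intensity over the 6 arrays for each pair of Ifitm probes, both axes listing the 8 probes and the colour running from -1 (blue) to 1 (red). ILMN_1214071 and ILMN_2814484 form a pair at 0.98, and the other 3 Ifitm1 probes form a block at 0.87 to 0.90.

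Probes of other genes with the most similar pattern were sought among 14134 named tested probes, by Pearson's r over the same 6 arrays. For ILMN_1214071 they were those of Mrgbp, Ndufs4 and Cmc2, with r from 0.992 to 0.996, and 156 probes had r of at least 0.95. For ILMN_2814484 they were Nxn, Mybbp1a and Pus7l (0.993 to 0.996). For ILMN_1217180 they were Brd8, Cox6a1 and Dzip3 (0.990 to 0.997). With only 6 arrays many probes reach a high r. Fnbp4, Fam20b and Pdp1 came closest to ILMN_1245129 (0.992 to 0.996), and Snx13, Micall1 and S100a11 to ILMN_2640765 (0.992 to 0.994). Ifitm2 was closest to Trappc4, Stat3 and Nme2 (0.992 to 0.994), Stat3 being read by 1 of its probes. Ifitm6 was closest to Rexo5, Ceacam2 and Nudt22 (0.983 to 0.988). Ifitm3, whose values hardly varied, was closest to Lamtor4, Slc4a2 and Cdipt (0.971 to 0.978), and 11 probes reached 0.95.

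The genes next to the cluster on chromosome 7 were read as a local comparison. Of the 4 nearest genes on each side with a probe, Ifitm5, Pgghg, Nlrp6 and Cox8b before it and B4galnt4, Pkp3, Sigirr and Ano9 after it, 4 of 8 were tested. With 1 probe a gene, their changes ran from -0.33 for Ifitm5, a family member of bone-forming cells, to 0.61 for Pkp3, a plakophilin of cell junctions, and 0 were called higher or lower. A dimmer probe of Pgghg gave 0.71 ± 0.40 (SE), where its brighter one gave 0.09 ± 0.31 (SE).

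Genes that carry the interferon signal showed no call in this comparison. Of 19 interferon signalling genes, which include receptors, kinases, STAT and IRF factors, 14 were tested, 0 were called higher and 0 lower, and their median change was -0.04, beside -0.0041 over all 9089 tested genes, of which 1.74% were called in either direction and 0.792% lower. The 4 with the smallest p were Irf2, Ifngr2, Ifngr1 and Irf8. Irf2, a repressor of interferon-responsive promoters, gave a log2 change of -0.80 ± 0.21 (SE; adjusted p = 0.112), and Irf8, a factor of monocyte development, gave 0.57 ± 0.19 (SE; adjusted p = 0.162). The chains of the interferon gamma receptor lay on opposite sides of 0, Ifngr1 at -0.48 ± 0.16 (SE; adjusted p = 0.160) and Ifngr2 at 0.77 ± 0.24 (SE; adjusted p = 0.148), with other Ifngr2 probes at 0.13 and 0.03.

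Among 34 antiviral genes that interferons induce, 24 were tested and 1 was called, 13 had a change above 0 and 11 below, and the median change was 0.10. Ifit3, which binds viral RNA in a complex with other IFIT proteins, read 8.06, 8.41 and 8.49 in control mice and 6.83, 6.31 and 6.24 in MEC1 mice. It fell by 1.86 ± 0.27 (SE; limma adjusted p = 0.0192), the opposite direction to the called Ifitm1 probes. Every MEC1 mouse was below every control mouse. The call was lost without mouse A, B, C or E (adjusted p = 0.0555 to 0.160) and with chip position as a covariate (adjusted p = 0.266), and over all alternatives the adjusted p ran from 0.000288 to 0.266. The change itself was -1.99 to -1.78 without 1 of those mice and -1.74 with chip position.

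The other antiviral genes with the smallest p lay on both sides of 0. Rsad2, which makes an antiviral nucleotide, gave -0.81 ± 0.23 (SE; adjusted p = 0.122). Tap1, a peptide transporter of antigen presentation, gave 1.02 ± 0.31 (SE; adjusted p = 0.137), Ly6e, a surface protein that restricts coronaviruses, gave 0.34 ± 0.11 (SE; adjusted p = 0.155) and Ifi35 gave 0.76 ± 0.26 (SE; adjusted p = 0.167). Taking every one of the 78 tested probes of these lists rather than 1 a gene added a single call, a probe of the nucleic acid sensor Zbp1 singled out after its values were seen. That probe was not well above background in 3 of 3 control mice and detected in 3 of 3 MEC1 mice, where it was at least 1.84-fold higher, and it passed the filter on dim probes only through the MEC1 mice. The brighter Zbp1 probe was not called, at 0.62 ± 0.29 (SE; adjusted p = 0.271).

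Genes whose proteins bind or modify IFITM proteins, mostly known from human cells, were not called either. Of 9 such genes 6 were tested, 0 were called, and the median change was 0.09. Setd7, a methyltransferase that acts on IFITM3, gave -1.06 ± 0.32 (SE; adjusted p = 0.132), and Vapa, a membrane protein of the endoplasmic reticulum that binds IFITM3, gave 0.84 ± 0.29 (SE; adjusted p = 0.176). Zmpste24, a membrane protease needed for IFITM function, gave 0.40 ± 0.16 (SE; adjusted p = 0.220), with other probes at -0.08 and -0.21. Vcp, an ATPase that extracts ubiquitinated proteins, gave 0.15 ± 0.09 (SE; adjusted p = 0.386). Of 9 other genes of the CD225 family only Ifitm5 was tested, at -0.33 ± 0.43 (SE; adjusted p = 0.694).

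**Figure D5:**
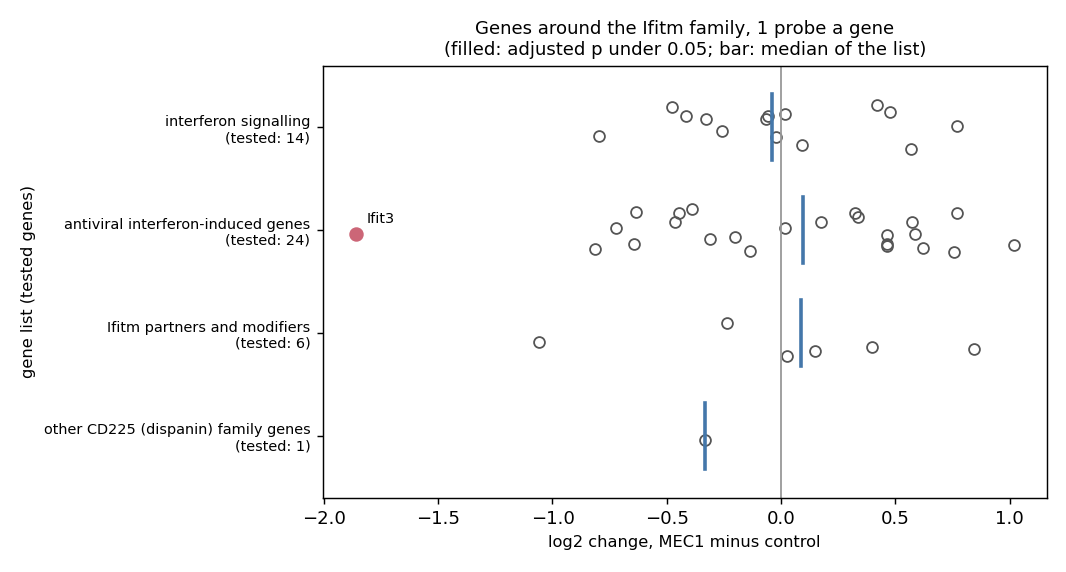
Log2 change, MEC1 minus control (horizontal axis), of each tested gene in the 4 lists around the Ifitm family (vertical axis), 1 probe a gene; filled points have an adjusted p under 0.05 and blue bars are list medians. Ifit3 at -1.86 is the only filled point, and the medians of the lists lie between -0.33 and 0.10.

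Markers of marrow cell types were read beside the Ifitm values. The summed linear level of the 9 tested erythroid genes of 11 ran from 145195 to 167449 in control mice and from 79590 to 125896 in MEC1 mice, lowest in mouse E. All 9 had a change below 0 and 0 were called. That of the 12 tested neutrophil genes of 13 ran from 159833 to 181275 and from 181567 to 185936. Of these, 7 had a change above 0 and 5 below, and Prtn3, a granule protease, was called higher at 0.39 ± 0.08 (SE; adjusted p = 0.0483). That of the 8 tested monocyte and macrophage genes of 11 ran from 48465 to 50837 and from 36806 to 38810, with Lyz2 called lower at -0.45 ± 0.09 (SE; adjusted p = 0.0491) and Fcgr1, an Fc receptor that interferon gamma induces, called higher at 1.77 ± 0.25 (SE; adjusted p = 0.0170). Another bright Lyz2 probe gave 0.08 ± 0.14 (SE; adjusted p = 0.772). The called Lyz2 probe made up 69.5% to 82.1% of the monocyte and macrophage sum, and without it the sum over the remaining 7 genes ran from 10719 to 10932 in control mice and from 6942 to 11224 in MEC1 mice. The summed levels of the groups did not overlap for these 3 cell classes, but without Lyz2 those of monocytes and macrophages did. This was not particular to them. B, T and NK cell markers ran from 2508 to 3482 in control mice and from 3554 to 4063 in MEC1 mice. Dendritic cell markers ran from 1935 to 2504 and from 1479 to 1885. The sums of the remaining classes overlapped. For neutrophil genes the groups nearly touched, at 181275 in mouse B and 181567 in mouse E, and the median change was 0.05. Of single tested probes 27.7% did not overlap. How far single bright genes carry the erythroid and neutrophil sums was not tested. Mmp8 was the neutrophil marker too dim to be tested. The part of these cells in the Ifitm values was not tested.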

How the data were processed

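Total RNA of purified bone marrow monocytes and macrophages from 3 control and 3 MEC1 mice was read on 1-colour Illumina bead arrays, 1 per mouse. The authors deposited a raw intensity (mean bead signal) and a p-value of detection for 45281 probes, per the file headers, and a second table of processed intensity whose steps are not given in the sources used here. GenomeStudio is named per the submitters' processing notes, with its version not given. Each control and MEC1 sample was a separate mouse per the labels, and letters are not shared between groups, so samples were not paired.

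Intensities were background-corrected and quantile normalized with neqc of limma 3.58.1 (R 4.3.3, offset 16) and expressed as log2. Negative controls were inferred from the deposited detection p-values. The offset shrinks changes of dim probes, and background correction can widen them. ILMN_2814484 changed by 1.98 as reported, by 1.40 with an offset of 50 and by 1.03 without background correction. Probes with detection p under 0.05 on at least 3 of 6 arrays were tested with lmFit and eBayes (trend, robust), two-sided, with Benjamini-Hochberg adjustment over all 16460, and a call is an adjusted p under 0.05. The fit was also run on simulated data, with changes planted only in brighter probes, so that run does not cover the dim Ifitm1 probes.

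Of all probes, 34885 had 1 symbol (34807 updated through the RefSeq gene table), 18 had several and 10378 were unnamed here. In the lists a gene is read by its brightest tested probe. Named were every Ifitm probe, in each pathway list the called genes and up to 4 with the smallest p, the 3 called cell type markers, the 3 most similar probes of other genes and 4 neighbours on each side. Members and lists were chosen with earlier results of these data known. Some listed pathway genes are not reported here. Alternatives were another scaling, background, offset, filter and moderation, the authors' processed values, chip position and leaving out each mouse. Markers of 6 more cell classes were read and held 0 calls. IFITM protein sequences were not analysed here.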

Additional observations from a re-analysis of the deposited data

How the results depend on the processing

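Both called Ifitm1 probes were also called with median scaling, without background correction, with the authors' processed values, an offset of 50, no or a stricter detection filter and plain moderation. The stricter filter kept a probe with detection p under 0.01 in every mouse of either group. ILMN_2814484 passed it through the MEC1 mice alone, so its call there is no separate support. Chip position as a covariate left 0 of 8 Ifitm probes, 0 pathway genes and 0 of all tested probes called (2397 at an unadjusted p under 0.05). Since position was entered as the array order, A to F, it runs along with group. Neither the lost calls nor the turned directions of that fit tell position from group. Leaving out 1 mouse gave 0 to 2 Ifitm probes (0 without A, 1, ILMN_1214071, without B, C, E or F, 2 without D), 0 to 5 pathway genes and 5 to 1218 probes in all, lowest without A and highest without D. Median scaling gave 7 pathway genes and 2111 probes, 6.16% of them higher against 56.5% of 253 as reported, with the median of all probes at -0.48, and plain moderation gave 95. Probes near 0 turned direction: ILMN_1217180 to 0.15 with chip position, 0.0015 without A and 0.012 without E, Ifitm3 to -0.027 with median scaling, -0.0095 without B and -0.0028 without D, and Ifitm6 to 0.57 with chip position, 0.05 without B, 0.06 without E and 0.10 without F. ILMN_1245129 turned to 0.51 and ILMN_2640765 to 0.35 with chip position. Without 1 mouse the changes ran from -0.10 to 0.012 for ILMN_1217180, -0.0095 to 0.087 for Ifitm3 and -0.31 to 0.10 for Ifitm6. The cause was not tested. ILMN_2640765 could not be fitted under the stricter filter. No paired analysis was possible because the groups share no replicate letters. The number of arrays limits the precision, and ILMN_2814484, ILMN_1245129 and ILMN_2640765 lie near background.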
